A study of Mus musculus with 13 samples.

Results

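The 34 genes described here encode the ligands, receptors, Smad proteins, antagonists and matrix partners of the transforming growth factor beta (TGF-beta), activin, myostatin and bone morphogenetic protein (BMP) pathways. They were chosen by gene symbol from knowledge of the pathway and comprise 9 ligands, 9 receptors, 5 Smads, 4 inhibitors that act inside the cell, 4 secreted antagonists and 3 genes of the matrix and ligand latency. All 34 are among the 23366 genes of the count table, and all 34 passed the filter on low counts, which left 16537 genes. RNA was sequenced from 13 libraries of primary skeletal muscle cells taken from the hind limbs of newborn mouse pups of mixed strain background. Proliferating myoblasts were grown with calf serum and fibroblast growth factor, and myotubes were cells moved to low horse serum for 24 hours. Wild-type cells gave 4 myoblast and 5 myotube libraries, and dICR/dICR cells gave 2 of each, where dICR/dICR cells lack the imprinting control region between Igf2 and H19 on both chromosomes. Whether the replicates came from different cultures or animals is not in the labels, so p-values measure only the spread between these samples, which may be technical.

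In this pathway a dimeric ligand brings together type I and type II receptor kinases, and the type I receptor phosphorylates receptor-activated Smads. TGF-beta, activin and myostatin signal mainly through Smad2 and Smad3, BMPs through Smad1 and Smad5, and both branches use the shared partner Smad4 to act on transcription in the nucleus. In muscle, myostatin and TGF-beta are known as inhibitors of myoblast differentiation and of muscle growth, and follistatin as an antagonist of myostatin and activin.

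Total counts ranged from 5.31 to 56.44 mega counts, and no library lay between 10.91 and 35.56. The 7 libraries above 20 mega counts are called deep and the other 6 shallow, a division made from the data. Wild-type myoblasts 1 and 2 and wild-type myotubes 1 to 3 were deep, and the rest of the wild-type libraries were shallow. Both dICR/dICR myoblasts were shallow and both dICR/dICR myotubes were deep. Ddx3y, a Y-linked gene, was at most 0.46 CPM (counts scaled to a common library total) in all 4 shallow wild-type libraries and at least 14.5 CPM in each other library. The summed level of 9 muscle lineage markers was 2251 and 2406 CPM in the deep wild-type myoblasts, 1 and 2, against 7711 and 8112 CPM in wild-type myoblasts 3 and 4. The 2 depth sets thus differed within wild type in more than depth. Some replicates were also far more alike than others. The chi-square per degree of freedom between the counts of 2 libraries, which grows with depth, was 4.7 for wild-type myoblasts 3 and 4. It was 39.8 for wild-type myoblasts 1 and 2 and 363.5 to 368.8 across these pairs. Wild-type myotubes 4 and 5 gave 21.9, and the other wild-type myotube pairs 245.9 to 324.1. Each n below counts libraries, which may not be independent. H19, the transcript beside the deleted region, lay between 52.4 and 71.5 CPM in the dICR/dICR libraries and between 2345 and 40495 CPM in the wild-type libraries. The part of these differences in the results below was not tested. In bulk RNA, fewer cells of a type and less RNA per cell cannot be told apart.

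Per kilobase of exon, the members differed widely in level. Among the ligands in wild-type myotubes, Tgfb3 had the highest median at 148 CPM per kb (range 140 to 172), above Mstn at 19.1 (3.30 to 81.5), Gdf11 at 5.47 (3.47 to 9.53) and Tgfb2 at 4.04 (1.41 to 12.4). The lowest Tgfb3 library was above the highest Mstn library, whereas the ranges of Mstn, Gdf11 and Tgfb2 overlapped. Tgfb1, Inhba, Bmp2, Bmp4 and Bmp6 each had a median under 1 CPM per kb, Tgfb1 the highest of them at 0.686. Among the receptors, Bmpr1a was highest at 35.7 CPM per kb, with Acvr2a at 21.4 and Tgfbr1 at 17.3, and Tgfbr3 was lowest at 0.183. Smad3 led the Smads at 44.1 CPM per kb, and Smad4 followed at 27.3. In wild-type myoblasts the highest member was Ltbp1, at 53.8 CPM per kb, and Tgfb3 stood at 27.7. Exon lengths came from a later annotation than the one used for counting.

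**Figure D1:**
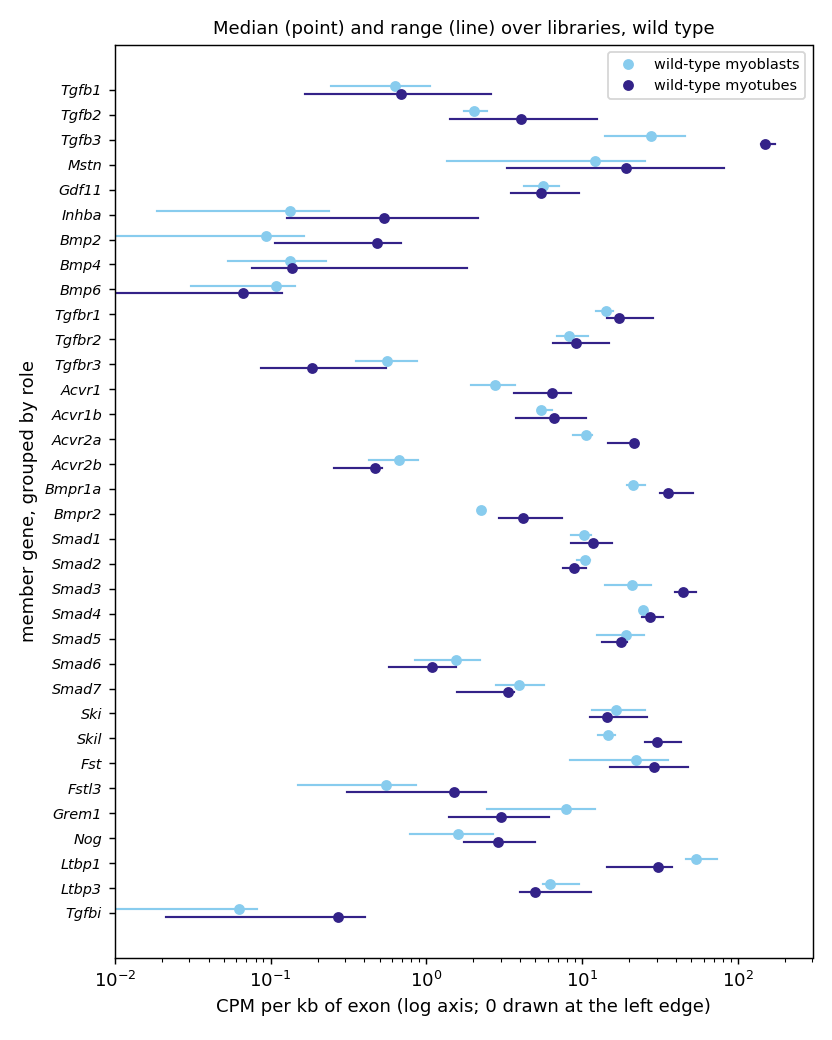
Level of each of the 34 members in wild-type myoblasts and wild-type myotubes, in CPM per kb of exon on a log axis. Points are medians and lines run from the lowest to the highest library. Tgfb3 stands at 148 CPM per kb in myotubes and 27.7 in myoblasts, and the medians of the other 8 ligands lie below it in both.

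The first comparison asked which members differed between myotubes and myoblasts of wild-type cells. Of the 34 members, 9 (26.5%) passed the threshold, 8 higher and 1 lower in myotubes, beside 19.1% of all genes tested (8.86% higher and 10.2% lower). The members' median log2 fold change was 0.43, beside 0.02 over all genes. The 8 that rose were the ligands Tgfb3 and Bmp2, the receptors Acvr1, Acvr2a, Bmpr1a and Bmpr2, the signal transducer Smad3, and Skil, a nuclear inhibitor of Smads. The 1 that fell was Ltbp1, whose protein holds latent TGF-beta in the matrix. In 7 members the myotube and myoblast libraries did not overlap, beside 19% of all genes; they were Tgfb3, Acvr2a, Bmpr1a, Bmpr2, Smad3 and Skil, higher in myotubes, and Ltbp1, lower. Markers of the muscle lineage summed to 2250 to 8110 CPM in the wild-type myoblasts and 15000 to 25800 CPM in myotubes, and the summed level of 7 cell-cycle genes went from 736 to 2320 CPM to 41.6 to 157 CPM in 4 of the myotubes and 1043 CPM in wild-type myotube 2, so the differences in the pathway stood beside those of differentiation itself. With the depth set as a term 13 members passed, beside 31.8% of all genes. Among deep libraries alone 9 of 34 passed, beside 22.2%, and among shallow libraries alone 8 of the 30 with enough counts, beside 22.6%. Tgfb3, Bmpr1a, Smad3 and Skil passed in all of these. With separate group means for each depth set in 1 fit of all libraries, chosen after seeing the data, 10 passed within the deep set (29.1% of all genes) and 2, Tgfb3 and Acvr1, within the shallow set (6.98%). Over all libraries DESeq2 called 11 members, adding Tgfb2 and Inhba, beside 26.2% of all genes, and limma voom called 11, beside 24% of all genes.

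Tgfb3, a TGF-beta ligand, had the smallest adjusted p of the members. Its level was 51.8, 46.9, 135 and 155 CPM in wild-type myoblasts 1 to 4 and 545, 502, 474, 492 and 583 CPM in wild-type myotubes 1 to 5. Every myotube library was above every myoblast library, and the 2 shallow myoblast libraries were higher than the 2 deep ones. The means were 97.2 CPM (SD 55.8, n = 4) and 519 CPM (SD 44.3, n = 5), a 5.35-fold difference, and the log2 fold change was 2.42 ± 0.41 (SE; adjusted p = 0.00278, edgeR quasi-likelihood test with Benjamini-Hochberg adjustment). The log2 fold change was 3.39 ± 0.37 among deep libraries (adjusted p = 0.00228, edgeR) and 1.91 ± 0.26 among shallow ones (adjusted p = 0.00257, edgeR), so it passed in both sets.

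Mstn encodes myostatin, the muscle-restricted ligand that limits muscle mass. It was at 4.05, 3.67, 68.3 and 61.0 CPM in the wild-type myoblasts 1 to 4 and at 51.7, 8.93, 110.1, 220.4 and 50.5 CPM in the 5 wild-type myotubes. The deep myoblasts were the lowest libraries, myotube 2 was the next lowest, and the shallow myoblasts lay within the range of the myotubes. The log2 fold change over all libraries was 1.38 ± 1.00 (adjusted p = 0.37, edgeR) and did not pass. Among deep libraries Mstn rose, at 3.91 ± 1.05 (adjusted p = 0.0354, edgeR), and among shallow ones the value was 1.09 ± 0.65 (adjusted p = 0.261, edgeR). With the depth set as a term it was 2.55 ± 0.87 (adjusted p = 0.0407, edgeR).

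The promoters of Mstn and Smad3 are shown because Mstn varied widely between wild-type libraries and Smad3 was the only Smad that passed. Each is the 250 bases before the start of the gene, from RefSeq on GRCm38.p6, 5′ to 3′ on the strand of the gene, at chr1:53061390-53061639 (plus strand) for Mstn and chr9:63757995-63758244 (minus strand) for Smad3. Capitals mark the E-box letters CANNTG, which basic helix-loop-helix factors such as MyoD bind, and the Smad half-site letters GTCTG or CAGAC, both searched on both strands.
Mstn: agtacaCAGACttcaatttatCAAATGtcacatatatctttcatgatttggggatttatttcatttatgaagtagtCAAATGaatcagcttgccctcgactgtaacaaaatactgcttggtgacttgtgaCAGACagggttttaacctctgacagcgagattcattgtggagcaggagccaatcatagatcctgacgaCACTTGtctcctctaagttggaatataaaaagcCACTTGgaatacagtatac
Smad3: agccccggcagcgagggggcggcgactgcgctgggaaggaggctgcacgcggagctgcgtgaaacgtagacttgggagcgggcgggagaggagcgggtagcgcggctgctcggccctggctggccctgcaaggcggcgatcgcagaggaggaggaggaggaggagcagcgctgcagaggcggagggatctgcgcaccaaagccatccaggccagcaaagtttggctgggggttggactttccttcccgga
The Mstn window held 4 E-boxes, 229, 174, 52 and 19 bases before the start, and 2 Smad half-sites, 244 and 120 bases before it. The Smad3 window held neither set of letters. Of 32851 promoter windows of the same length, 66.2% held an E-box and 42.2% a Smad half-site, so such a match is common.

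The remaining ligands were lower and more variable. Tgfb2 was at 10.2, 10.6, 13.0 and 14.1 CPM in the wild-type myoblasts and 8.15, 71.9, 21.3, 23.4 and 35.7 CPM in wild-type myotubes. Only myotube 1 lay below the myoblasts, and the log2 fold change of 1.43 ± 0.49 did not pass (adjusted p = 0.0584, edgeR); it passed with the depth set as a term, at 1.45 ± 0.49 (adjusted p = 0.0393, edgeR), and without myotube 1. Inhba, the activin A subunit, was at 1.51, 1.24, 0.12 and 0.46 CPM in myoblasts and 3.28, 5.23, 13.7, 3.39 and 0.81 CPM in myotubes. Its groups overlapped through myotube 5, and its log2 fold change of 2.56 ± 0.85 (adjusted p = 0.0537, edgeR) passed only with the depth set as a term (2.56 ± 0.69, adjusted p = 0.0139), with DESeq2, and without myotube 5 or either dICR/dICR myotube. Bmp2, a BMP ligand, was at 0.58, 0.35, 0 and 0.31 CPM in myoblasts and 0.38, 1.71, 1.83, 1.54 and 2.44 CPM in myotubes, which is 0 to 31 counts a library in myoblasts. It passed over all libraries, at 2.15 ± 0.69 (adjusted p = 0.0485, edgeR), but lost the call in 12 of the 13 fits that left out 1 library, all but the one without wild-type myotube 1.

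Of the 9 receptors, 4 rose. Acvr2a, a type II receptor for activin and myostatin, was at 57.6, 49.6, 66.1 and 63.3 CPM in the wild-type myoblasts and 121.6, 96.1, 127, 123 and 83.5 CPM in wild-type myotubes. The groups did not overlap, and its log2 fold change was 0.90 ± 0.18 (adjusted p = 0.00646, edgeR). Bmpr1a, a type I receptor for BMPs, was at 159, 145, 126 and 123 CPM in myoblasts and 325, 227, 269, 213 and 201 CPM in myotubes. All myotube libraries were higher, and the log2 fold change was 0.84 ± 0.19 (adjusted p = 0.0123, edgeR), with 0.87 ± 0.22 among deep libraries and 0.76 ± 0.18 among shallow ones, both past the threshold. Bmpr2, the type II receptor for BMPs, was at 39.5, 42.3, 39.2 and 40.6 CPM in myoblasts and 72.7, 84.9, 133, 52.5 and 75.4 CPM in myotubes. The myoblast libraries lay close together and below all myotubes, and the log2 fold change was 1.05 ± 0.27 (adjusted p = 0.0182, edgeR). Acvr1, another type I receptor of the BMP branch, was at 15.8, 17.8, 9.37 and 10.9 CPM in myoblasts and 17.5, 30.7, 31.7, 22.8 and 40.9 CPM in myotubes. Myotube 1 lay just under myoblast 2, and the log2 fold change of 1.08 ± 0.29 (adjusted p = 0.0213, edgeR) lost the call without wild-type myoblast 3 or without wild-type myoblast 4. Acvr2a and Bmpr2 passed among deep libraries (1.13 ± 0.21 and 1.28 ± 0.35) and not among shallow ones (0.70 for each, adjusted p = 0.0713 and 0.0956, edgeR), while Acvr1 passed among shallow libraries (1.67 ± 0.32) and not among deep ones (0.70, adjusted p = 0.177, edgeR); the differences between the sets were not tested. Acvr2a overlaps exons of Orc4 on the other strand, and since it is not known whether counting used the strand, its counts are uncertain.

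The other 5 receptors did not pass. The TGF-beta receptors Tgfbr1 and Tgfbr2 had log2 fold changes of 0.43 ± 0.25 and 0.19 ± 0.25, with levels over all 9 wild-type libraries of 80.0 to 185 CPM and 52.8 to 122 CPM. The co-receptor Tgfbr3 (0.57 to 5.69 CPM) had -0.99 ± 0.52, the activin type I receptor Acvr1b (16.5 to 46.4 CPM) 0.21 ± 0.26, and the activin type II receptor Acvr2b (1.01 to 3.45 CPM) -0.63 ± 0.36. With limma voom, Tgfbr3 was also called lower.

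Among the Smads, only Smad3 passed. It stood at 79.7, 77.5, 151 and 153 CPM in the wild-type myoblasts and 289, 218, 298, 244 and 241 CPM in wild-type myotubes. All myotubes were above all myoblasts, and as with Tgfb3 the shallow myoblasts were above the deep ones. The means were 115 CPM (SD 42.4, n = 4) and 258 CPM (SD 34.1, n = 5), and the log2 fold change between them was 1.16 ± 0.25 (adjusted p = 0.00932, edgeR). Among deep libraries it was 1.80 ± 0.23 (adjusted p = 0.00345, edgeR) and among shallow ones 0.70 ± 0.19 (adjusted p = 0.0356, edgeR). Smad2, which shares the TGF-beta branch with Smad3, was at 98.6, 97.0, 86.2 and 81.2 CPM in myoblasts and 90.3, 92.8, 77.7, 71.0 and 66.0 CPM in myotubes, overlapping ranges with a log2 difference of -0.19 ± 0.18 (adjusted p = 0.517, edgeR). Smad4, the shared partner, was at 91.1, 92.5, 88.6 and 90.1 CPM in myoblasts and 122.6, 96.3, 90.3, 103 and 101 CPM in myotubes, a log2 difference of 0.18 ± 0.14 (adjusted p = 0.409, edgeR).

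Skil, also called SnoN, binds Smads in the nucleus and represses their targets, and its own transcription is known to be induced by TGF-beta. It was at 135, 122, 157 and 151 CPM in the wild-type myoblasts and 418, 245, 368, 292 and 268 CPM in wild-type myotubes. The groups did not overlap, and the log2 fold change was 1.17 ± 0.20 (adjusted p = 0.00298, edgeR), with 1.45 ± 0.27 among deep libraries and 0.89 ± 0.16 among shallow ones, both past the threshold. The other inhibitors inside the cell did not pass. The inhibitory Smads Smad6 (1.83 to 7.05 CPM) and Smad7 (7.05 to 25.8 CPM) had log2 fold changes of -0.61 ± 0.38 and -0.54 ± 0.30, and Ski (62.1 to 145 CPM), the paralog of Skil, had -0.02 ± 0.34.

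**Figure D2:**
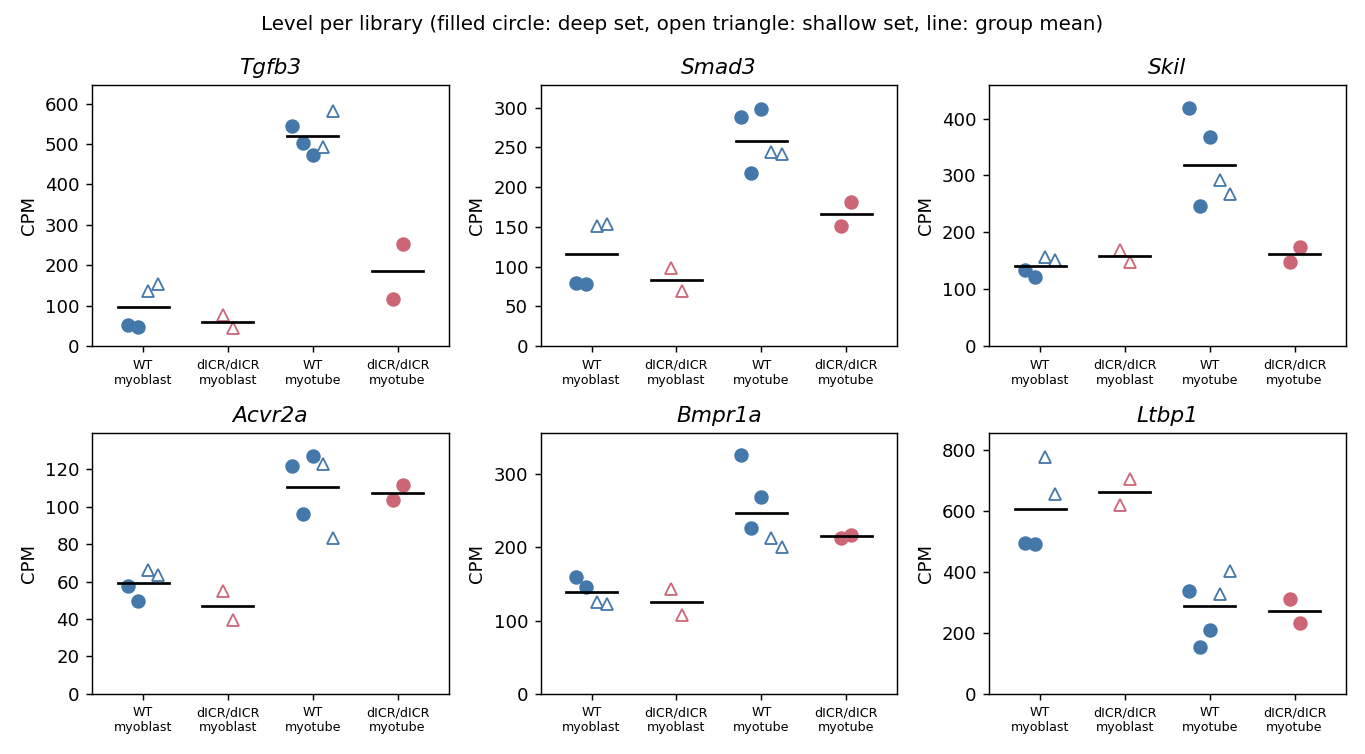
Level in CPM of Tgfb3, Smad3, Skil, Acvr2a, Bmpr1a and Ltbp1 in every library of the 4 groups. Filled circles are deep libraries, open triangles shallow ones and lines group means. The wild-type myotubes lie above the wild-type myoblasts in the first 5 panels and below them for Ltbp1, and Tgfb3, Smad3 and Skil are lower in the 2 dICR/dICR myotubes than in any wild-type myotube.

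None of the 4 secreted antagonists passed edgeR's test over all libraries, limma voom called Grem1 lower and Nog higher, and Fst and Grem1 had opposite signs in the 2 depth sets. Fst encodes follistatin, and was at 161, 163, 42.7 and 38.2 CPM in the wild-type myoblasts and 115, 68.6, 149.7, 132 and 218 CPM in wild-type myotubes. Deep myoblasts were above all but 1 myotube library and shallow myoblasts below all of them. Its log2 fold change was 0.43 ± 0.61 over all libraries (adjusted p = 0.683, edgeR), -0.52 ± 0.53 among deep ones (adjusted p = 0.506, edgeR) and 2.13 ± 0.64 among shallow ones (adjusted p = 0.0491, edgeR). Grem1 encodes gremlin, an antagonist of BMPs, and was at 48.2, 50.4, 16.7 and 10.1 CPM in myoblasts and 5.79, 14.9, 5.84, 12.5 and 25.3 CPM in myotubes. It was -1.31 ± 0.55 over all libraries (adjusted p = 0.116, edgeR; -1.75 with adjusted p = 0.0298 in voom), fell by 2.44 on the log2 scale among deep ones (SE 0.49, adjusted p = 0.0141, edgeR) and was 0.50 ± 0.43 among shallow ones (adjusted p = 0.44, edgeR). The differences between the sets were not tested. Nog encodes noggin, another BMP antagonist, and was at 1.44, 1.32, 4.56 and 3.98 CPM in myoblasts and 2.93, 5.70, 4.69, 8.47 and 4.89 CPM in myotubes. Its 0.95 ± 0.45 over all libraries (adjusted p = 0.163, edgeR; 1.33 with adjusted p = 0.0398 in voom) became a call among deep libraries (1.72 ± 0.44, adjusted p = 0.0311, edgeR) and once the depth set was a term (1.23 ± 0.34, adjusted p = 0.0159, edgeR). Fstl3, a follistatin-like antagonist of activin, was at 2.07, 2.10, 0.37 and 0.61 CPM in myoblasts and 0.76 to 5.87 CPM in myotubes (1.45 ± 0.77, adjusted p = 0.212, edgeR).

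Ltbp1 fell with differentiation. It was at 493, 492, 777 and 657 CPM in the wild-type myoblasts and 338, 154, 211, 328 and 403 CPM in wild-type myotubes. Every myotube library was below every myoblast library, and the log2 fold change was -1.08 ± 0.29 (adjusted p = 0.0221, edgeR). The call was lost without wild-type myoblast 3 or without wild-type myotube 3. Among shallow libraries Ltbp1 passed at -0.95 ± 0.21 (adjusted p = 0.0161, edgeR), and among deep ones the similar value of -1.04 did not (adjusted p = 0.0574, edgeR). Ltbp3, a related latency protein (36.4 to 103 CPM), had -0.06 ± 0.32, and Tgfbi, a matrix protein named for its induction by TGF-beta, was at most 1.53 CPM in any library. The ligands not yet given, Tgfb1 (0.84 to 13.1 CPM), Gdf11 (14.1 to 38.7), Bmp4 (0.12 to 4.08) and Bmp6 (0 to 0.56), did not pass either.

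**Figure D3:**
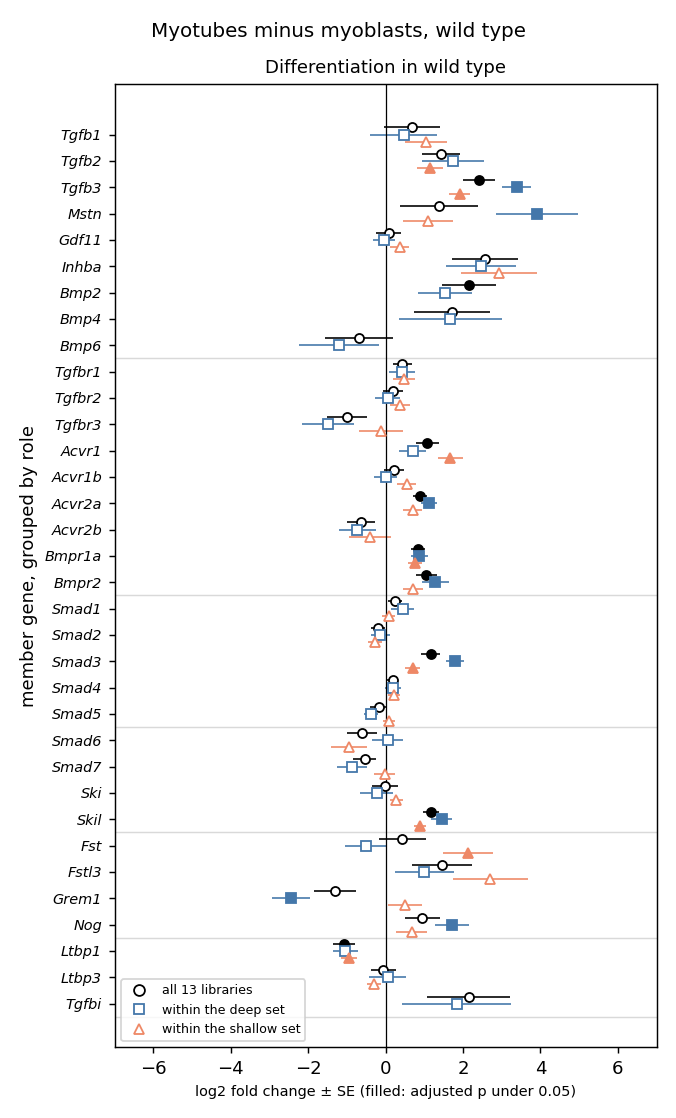
Log2 fold change (myotubes minus myoblasts, wild type) of each member with its SE, over all 13 libraries, among deep libraries and among shallow ones. Filled symbols have an adjusted p under 0.05; members with too few counts among shallow libraries have no triangle. Tgfb3, Bmpr1a, Smad3 and Skil are filled in all 3 fits, and Fst and Grem1 lie on different sides of 0 in the 2 sets.

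A wider list of 68 other pathway genes, of which 62 were tested, gave 12 higher and 7 lower in wild-type myotubes. Of all genes, 8.86% were higher and 10.2% lower there. The median log2 fold change of the list was 0.10. The 8 with the smallest p included both directions. Those that rose were Pmepa1, a TGF-beta target that feeds back on the pathway (2.14 ± 0.47), Ctgf, a matricellular TGF-beta target (3.54 ± 0.83), Ltbp2, a matrix relative of Ltbp1 (2.96 ± 0.67), the transcriptional repressor Zeb1 (1.89 ± 0.24) and the BMP antagonist Chrd (2.87 ± 0.68). The inhibitor-of-differentiation genes Id2 (-1.36 ± 0.29) and Id3 (-2.60 ± 0.62), known BMP targets, fell, as did the distant family member Gdf15 (-2.59 ± 0.49). All 8 had an adjusted p of at most 0.0138 (edgeR).

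The second comparison asked how dICR/dICR myoblasts differed from wild-type myoblasts. No member passed over all libraries, where 5 of 16537 genes (0.0302%) did, and 3 members had an unadjusted p under 0.05, Smad2, Smad4 and Tgfbr2 (edgeR), which is 3 of 34 beside 12.1% of all genes. DESeq2 called Smad2 and Smad4, beside 2.81% of all genes, and limma voom called no member. The members' median log2 fold change was -0.25, beside -0.06 over all genes. Since both dICR/dICR myoblasts were shallow, the same contrast was also taken among shallow libraries, where 5 of 30 members tested passed (16.7%), beside 21.6% of all genes. Replicates differed little there, so these p-values rest on a small spread. There Smad2 and Smad4 were higher and Tgfb2, Tgfb3 and Smad3 lower in dICR/dICR. With group means for each depth set fitted to all libraries at once, only Smad2 passed (5.25% of all genes). The Y-linked Ddx3y was at 0.25 and 0.15 CPM in the shallow wild-type myoblasts and 14.54 and 63.07 CPM in the dICR/dICR myoblasts. Among shallow myoblasts, genotype and this difference cannot be told apart.

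Smad2 was at 140.1 and 176 CPM in the 2 dICR/dICR myoblasts, and all 4 wild-type myoblasts, at 81.2 to 98.6 CPM, were lower. The log2 fold change was 0.80 ± 0.23 over all libraries (adjusted p = 0.22, edgeR), 0.95 ± 0.21 with the depth set as a term (adjusted p = 0.0421, edgeR; the 1 member called there, beside 2.01% of all genes) and 0.94 ± 0.17 among shallow libraries (adjusted p = 0.0106, edgeR). Smad4 was at 131 and 145 CPM in dICR/dICR myoblasts, and again all wild-type myoblasts, at 88.6 to 92.5 CPM, were lower. Its log2 fold change was 0.61 ± 0.18 over all libraries (adjusted p = 0.222, edgeR) and 0.65 ± 0.15 among shallow ones (adjusted p = 0.0225, edgeR). Over all libraries 7 members had groups that did not overlap, beside 28.5% of all genes: Smad2 and Smad4 higher, and Tgfb2, Tgfbr2, Smad6, Ski and Ltbp3 lower in dICR/dICR.

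Tgfb3 was at 76.2 and 44.1 CPM in dICR/dICR myoblasts, the first between the deep (46.9 and 51.8) and shallow (135 and 155) wild-type myoblasts and the second below all of them. Its log2 fold change was -0.69 ± 0.50 over all libraries (adjusted p = 0.575, edgeR) and -1.25 ± 0.26 among shallow ones (adjusted p = 0.0158, edgeR). Smad3 followed the same order, at 98.4 and 68.7 CPM in dICR/dICR, with -0.46 ± 0.33 over all libraries (adjusted p = 0.56, edgeR) and -0.84 ± 0.19 among shallow ones (adjusted p = 0.0207, edgeR). Tgfb2 was at 7.43 and 4.17 CPM, below the wild-type range of 10.2 to 14.1 CPM, with -1.18 ± 0.34 among shallow libraries (adjusted p = 0.0456, edgeR). Mstn, at 23.1 and 7.56 CPM, and Fst, at 61.8 and 10.8 CPM, compared with wild-type ranges of 3.67 to 68.3 and 38.2 to 163 CPM, and neither passed in either fit. The other members given in full stood as follows in the 2 dICR/dICR myoblasts, with no call in any fit of this comparison. The receptor Bmpr1a (143 and 107.5 CPM) was inside the wild-type myoblast range in 1 library and below it in the other, Bmpr2 (43.6 and 27.6 CPM) was above it in 1 and below it in the other, and Acvr1 (12.5 and 12.4 CPM) was inside it in both. The low ligands Inhba (1.41 and 0.52 CPM) and Bmp2 (0.55 and 0.13 CPM) and the antagonist Nog (1.95 and 2.35 CPM) lay inside it, and Fstl3 was at 0 and 0.78 CPM. Beside these values, muscle lineage markers summed to 7711 and 8112 CPM in the shallow wild-type myoblasts and 2987 and 2077 CPM in the dICR/dICR myoblasts, and cell-cycle genes to 806 and 736 CPM against 1886 and 1923 CPM. The part of these in the calls among shallow libraries was not tested.

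**Figure D4:**
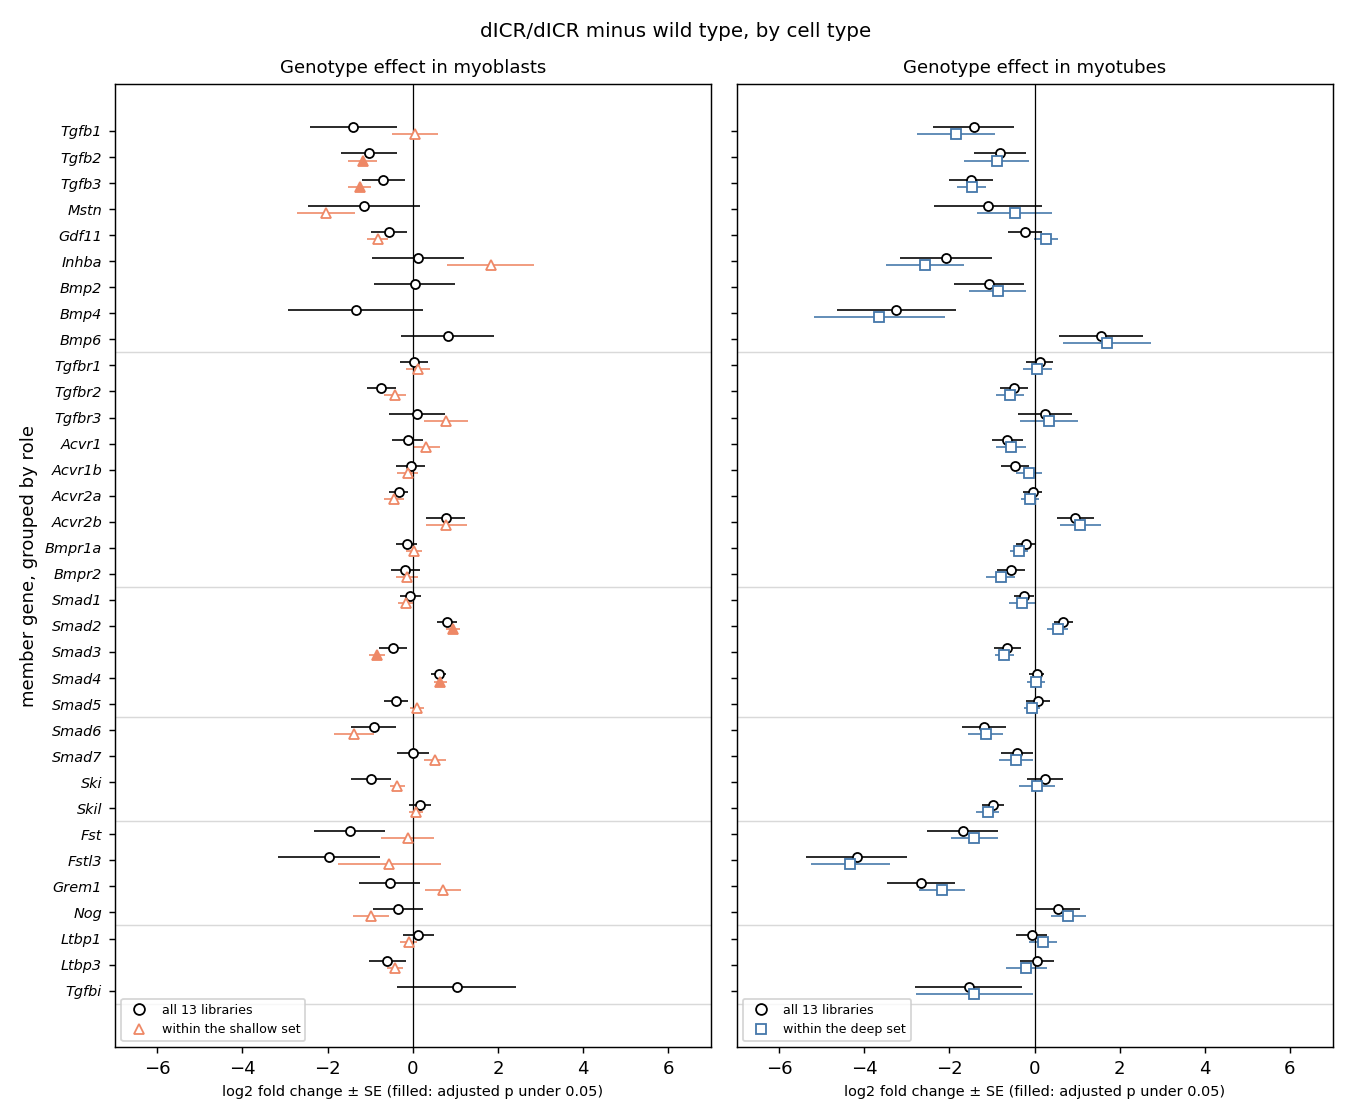
Log2 fold change (dICR/dICR minus wild type) of each member with its SE, in myoblasts at left and myotubes at right, over all libraries and within the depth set that holds both genotypes. Filled symbols have an adjusted p under 0.05. In myoblasts 5 members are filled, all among shallow libraries, and in myotubes none is.

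The third comparison asked the same of myotubes. No member passed over all libraries, where 92 genes (0.556%) did, and 8 of 34 had an unadjusted p under 0.05 (edgeR), beside 16.8% of all genes. The members' median was -0.47, beside -0.06 over all genes, and 24 of 34 values were negative. DESeq2 called 4 members lower in dICR/dICR, Tgfb3, Skil, Fstl3 and Grem1, beside 6.77% of all genes, and limma voom called Skil, beside 2.66%. Among deep libraries, which hold both dICR/dICR myotubes, no member passed (0.709% of all genes did), whereas group means for each depth set in 1 fit of all libraries, chosen after seeing the data, called the same 4 as DESeq2, beside 3.63% of all genes. The 2 dICR/dICR myotubes lay below all 5 wild-type myotubes in 8 members, Tgfb3, Bmp4, Smad3, Smad6, Skil, Fst, Fstl3 and Grem1, and above them in Smad2, beside 19.3% of all genes with no overlap.

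Skil had the smallest adjusted p of the members, and was at 148 and 175 CPM in dICR/dICR myotubes, whereas the wild-type myotubes lay between 245 and 418 CPM. Of the 2 dICR/dICR values, the lower was inside the wild-type myoblast range of 122 to 157 CPM. The log2 fold change was -0.98 ± 0.26 over all libraries (adjusted p = 0.0998, edgeR) and -1.10 ± 0.27 among deep ones (adjusted p = 0.117, edgeR). With DESeq2 it was -1.05 (adjusted p = 0.00172). Skil passed edgeR's test without wild-type myotube 2, a fit in which 5.93% of all genes passed, against 0.556% over all libraries. Tgfb3 was at 116 and 254 CPM in dICR/dICR myotubes, below the wild-type range of 474 to 583 CPM and above that of wild-type myoblasts in 1 of the 2. Its log2 fold change was -1.49 ± 0.51 over all libraries (adjusted p = 0.187, edgeR) and -1.47 ± 0.34 among deep ones (adjusted p = 0.105, edgeR). Smad3 was at 150.4 and 181 CPM, below 218 to 298 CPM in wild type, with -0.64 ± 0.32 (adjusted p = 0.329, edgeR).

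Of the 4 secreted antagonists, 3 lay below the wild-type range in both dICR/dICR myotubes, beside 19.3% of all genes with no overlap in either direction. None of the 4 passed over all libraries (edgeR). Fstl3 was at 0.24 and 0.17 CPM there, from 13 and 7 counts, and at 0.76, 5.55, 5.87, 2.77 and 3.67 CPM in wild-type myotubes. The log2 fold change was -4.18 ± 1.19 (adjusted p = 0.125, edgeR) and passed with the depth set as a term, at -4.56 ± 1.08 (adjusted p = 0.0467, edgeR), as the 1 member called there beside 2.57% of all genes; exons of Fstl3 overlap Prss57 on the other strand, so its counts are uncertain. Grem1 was at 2.63 and 1.33 CPM, below the wild-type range of 5.79 to 25.3 CPM, with -2.67 ± 0.80 (adjusted p = 0.139, edgeR). Fst was at 17.5 and 66.9 CPM, the second just below the lowest wild-type myotube at 68.6 CPM, with -1.69 ± 0.84 (adjusted p = 0.324, edgeR). That value was -1.03 without dICR/dICR myotube 1 and -2.96 without dICR/dICR myotube 2. Nog, at 5.70 and 9.81 CPM, was within or above the wild-type range of 2.93 to 8.47 CPM.

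**Figure D5:**
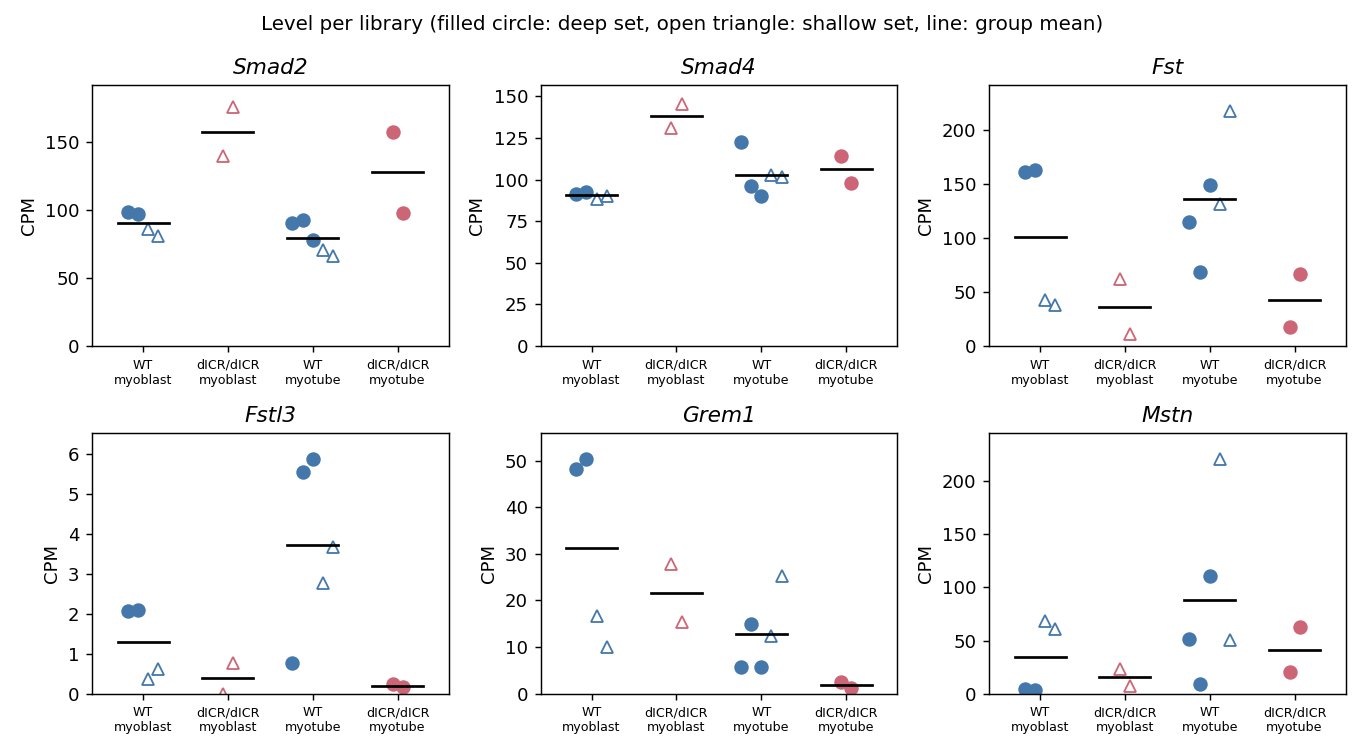
Level in CPM of Smad2, Smad4, Fst, Fstl3, Grem1 and Mstn in every library of the 4 groups, with symbols as in the plot of members that changed with differentiation. Smad2 and Smad4 are higher in both dICR/dICR myoblasts than in any wild-type myoblast, and Fst, Fstl3 and Grem1 are lower in both dICR/dICR myotubes than in any wild-type myotube.

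Smad2 was the 1 member above the wild-type range in myotubes, at 158 and 98.2 CPM against 66.0 to 92.8 CPM (0.68 ± 0.22, adjusted p = 0.167, edgeR); without dICR/dICR myotube 1 the value was 0.30. Smad4, at 114 and 97.9 CPM, was within the wild-type range of 90.3 to 123 CPM (0.05 ± 0.17). Mstn was at 20.2 and 62.6 CPM (-1.09 ± 1.27). The receptors Acvr2a (103 and 111 CPM), Bmpr1a (213 and 217), Bmpr2 (42.4 and 71.0) and Acvr1 (22.3 and 14.4) had log2 fold changes between -0.64 and -0.04, none past the threshold. Inhba (0.35 and 2.19 CPM), Bmp2 (0.71 and 0.76 CPM), Tgfb2 (17.6 and 19.4 CPM) and Ltbp1 (312 and 233 CPM) did not pass either. Beside these values, muscle lineage markers summed to 7618 and 12788 CPM in the dICR/dICR myotubes, against 14970 to 25839 CPM in wild type, and cell-cycle genes to 2035 and 917 CPM against 41.6 to 157 CPM in 4 wild-type myotubes and 1043 CPM in wild-type myotube 2. Markers of other cell types were also lower in median: the 9 fibroblast and fibro-adipogenic genes tested by 1.99 on the log2 scale (sums of 142 and 409 CPM against 328 to 1050 CPM), the 6 smooth muscle and pericyte genes by 1.46 (1027 and 2278 CPM against 2158 to 4488 CPM, nearly all of it Acta2) and the 6 macrophage genes by 2.59 (3.04 and 3.61 CPM against 3.20 to 14 CPM). None of these 21 genes passed (edgeR), and 9 had an unadjusted p under 0.05, beside 16.8% of all genes. Endothelium (5 genes tested), adipocyte (2) and Schwann and nerve (4) markers had medians of -1.49, -1.23 and -1.35. Of these, 0 had an unadjusted p under 0.05 (edgeR). Lum and Tcf21 were at 0 in both dICR/dICR myotubes, but at most 0.16 CPM in any library. Ly6a, of the fibroblast list, went the other way, at 46.25 and 11 CPM against 0 to 7.2 CPM in wild-type myotubes. So did Cd68, of the macrophage list, at 2.71 and 2.26 CPM against 0.92 to 2.04 CPM. Cd68 made most of the macrophage sums of the dICR/dICR myotubes. Lyz2, at 7.72 CPM in wild-type myotube 3, made the largest part of the highest wild-type macrophage sum. The part of these in the pathway's values was not tested. Of the 62 other pathway genes tested over all libraries, none passed in either genotype comparison (edgeR), and 10 in myoblasts and 13 in myotubes had an unadjusted p under 0.05, beside 12.1% and 16.8% of all genes. Among shallow myoblasts 50 of them were tested, of which 7 were higher and 8 lower in dICR/dICR, beside the 21.6% of all genes called there.

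Smad1 and Smad5 were followed because microRNAs made from H19 have been reported to act on BMP-branch Smads. Smad1 was at 52.9, 61.1, 66.1 and 70.9 CPM in the 4 wild-type myoblasts, 56.4 and 63.9 CPM in dICR/dICR myoblasts, 97.2, 53.3, 76.5, 73.1 and 69.7 CPM in wild-type myotubes and 51.2 and 73.3 CPM in dICR/dICR myotubes. All groups overlapped. Smad5 was at 186, 174, 109 and 93.0 CPM, 113 and 101 CPM, 131, 143, 131, 99.4 and 113 CPM, and 146 and 115 CPM in the same order. The genotype log2 fold changes were -0.06 ± 0.25 in myoblasts and -0.25 ± 0.24 in myotubes for Smad1, and -0.39 ± 0.29 and 0.08 ± 0.28 for Smad5, with adjusted p from 0.591 to 0.94 (edgeR). Between wild-type myotubes and myoblasts the values were 0.24 ± 0.19 for Smad1 and -0.18 ± 0.22 for Smad5. These values give the RNA level and not the protein.

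The 2 mature microRNAs of the H19 transcript are printed from RefSeq on GRCm38.p6, with the seed (bases 2 to 8) in capitals, followed by the Smad5 stretch that holds a match. They lie on the minus strand of chromosome 7, at chr7:142577078-142577099 for miR-675-3p and chr7:142577112-142577133 for miR-675-5p. The row Mir675 of the count table was 0 in all 13 libraries, which is of whole-transcript RNA and not of small RNA.
miR-675-3p: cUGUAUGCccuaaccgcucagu
miR-675-5p: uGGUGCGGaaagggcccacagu
Smad5 site: ccacctttgaaaaaGCATACAtt
The capitals GCATACA, the complement of the miR-675-3p seed, begin at position 418 of the longest annotated Smad5 3′ untranslated region of 4899 bases. The same letters occurred in the longest untranslated region of Inhba, Tgfbr1 and Bmpr2, and the miR-675-5p match CCGCACC in Acvr1b and Ski. Smad1 held neither. Among 14398 genes tested, 8.89% held the first and 2.78% the second, in regions with a median of 1333 bases, and the Smad5 region is longer than that. The match is of letters only.

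The last comparison was differentiation in dICR/dICR cells, in which myoblasts were all shallow and myotubes all deep, so differentiation and depth set cannot be told apart. No member passed over all libraries, where 24 genes (0.145%) did, and 9 of 34 had an unadjusted p under 0.05 (edgeR), beside 19.2% of all genes. DESeq2 called Acvr2a higher and Grem1 and Ltbp1 lower, beside 7.25% of all genes, and limma voom called no member. A fit of the 4 dICR/dICR libraries alone called these 3 and Tgfb2, 4 of the 32 tested, beside 14.2% of all genes. Acvr2a was at 55.0 and 39.2 CPM in dICR/dICR myoblasts and 103 and 111 CPM in myotubes (1.19 ± 0.27, adjusted p = 0.0742, edgeR). Grem1 went from 27.8 and 15.4 CPM to 2.63 and 1.33 CPM (-3.44 ± 0.90, adjusted p = 0.103, edgeR), and Ltbp1 from 619 and 707 CPM to 312 and 233 CPM (-1.28 ± 0.43, adjusted p = 0.178, edgeR). With the depth set as a term, whose shift comes from wild-type libraries, 4 members passed beside 7.63% of all genes: Tgfb3 (2.38 ± 0.56), Gdf11 (1.28 ± 0.36), Acvr2a (1.23 ± 0.31) and Nog (2.92 ± 0.60).

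The difference between the 2 differentiation changes was tested as an interaction. Over all libraries no member and no gene passed (edgeR), and 2 of 34 members and 1643 genes (9.94%) had an unadjusted p under 0.05. With the depth set as a term 0 members and 16 genes (0.0968%) passed. There 5 of 34 members had an unadjusted p under 0.05, beside 10.4% of all genes (edgeR). Since dICR/dICR myoblasts were shallow and myotubes deep, the dICR/dICR part of this difference cannot be told apart from depth set. Over all libraries Skil had the smallest p of the members. It went from 122 to 157 CPM to 245 to 418 CPM in wild type, and from 148 and 170 CPM to 148 and 175 CPM in dICR/dICR. The log2 difference was -1.15 ± 0.35 (unadjusted p = 0.00681, adjusted p = 0.495, edgeR quasi-likelihood), and DESeq2 called it and no other member, beside 0.435% of all genes. Tgfb3 had a difference of -0.80 ± 0.68 (adjusted p = 0.66, edgeR) and Smad3 of -0.18 ± 0.45 (adjusted p = 0.906, edgeR).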

How the data were processed

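The authors deposited unnormalised counts for each gene in each library. TopHat2 alignment to mm9 and HTSeq counting are named in the submitters' processing notes, whereas versions, annotation, strand setting and the platform of each library, of the 2 in the labels' protocols, are not given in sources used here. The series design gives fewer replicates a group than the table holds, and all 13 libraries were used as labelled.

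Counts were analysed in R 4.3.3 with edgeR 4.0.16. Genes were kept with filterByExpr (minimum count 10, minimum total 15), libraries were scaled by TMM, and a single quasi-likelihood fit with 4 group means took in all libraries, so that the groups of 2 share the spread of the larger ones. Tests were two-sided, and a Benjamini-Hochberg adjusted p under 0.05 over all genes was called. CPM are counts scaled by the library size of kept genes times its TMM factor; SE is from the F statistic. Fits among deep or shallow libraries filter genes anew. DESeq2 1.42.0 and limma 3.58.1 (voom) were alternatives, and the scripts were tested on simulated data. Levels per kb used GENCODE M21 exon lengths.

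The members, lists and tests were chosen with earlier results of these data known. Values in every library were given for members called in any of the first 3 comparisons over all libraries, with the depth set as a term or within a set, and for Smad1, Smad5, Mstn and Fst; other members are given by range, and other pathway genes by count with at most 8 values. The labels do not say that replicate numbers pair samples. Deviations of same-numbered wild-type myoblasts and myotubes correlated at 0.45, 0.60, -0.48 and 0.67 across genes, so the numbers were not used as pairs. RefSeq promoters matched 25 of the 34 members. The depth of a library limits the precision of low genes: Bmp2, Bmp4, Bmp6 and Tgfbi were not tested among shallow libraries.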

Additional observations from a re-analysis of the deposited data

Results flagged for a closer look

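Bmp4, a BMP ligand, was at 4.08 CPM in wild-type myotube 2 and between 0.17 and 0.81 CPM in the other 4 wild-type myotubes, which sets that library far from its group: the gap to the nearest library was 0.835 of the whole range. It was the only such value among 68 gene and group pairs with 4 or 5 libraries, and chance would put about 1 in 20 groups past the limit. The same library held the highest Tgfb1 (13.1 CPM) and Tgfb2 (71.9 CPM) and the lowest Mstn (8.93 CPM) of the wild-type myotubes. Its 7 cell-cycle genes summed to 1043 CPM, against 41.6 to 157 CPM in the other 4, and its muscle lineage sum of 14970 CPM was the lowest of the 5. Its fibroblast and fibro-adipogenic markers summed to 1050 CPM, against 328 to 508 CPM in the other 4, of which the collagen Col3a1 alone made 888 CPM. Fap, of the same list, was at 20.4 CPM, and Pdgfrb, of the smooth muscle and pericyte list, at 79.8 CPM there, while Pdgfra, Lum, Thy1, Dpt and Tcf21 were each at most 0.55 CPM. Bmp4 exons overlap Gm15217 on the other strand. The part of these in the Bmp4 value was not tested.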

How the results depend on the processing

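No value changed its sign while being called under any alternative. Members called in the genotype comparison of myoblasts were 0, but 2 with DESeq2, 1 with the depth set as a term, 5 among shallow libraries and 1 with group means for each depth set; leaving out 1 library gave 0 throughout. In myotubes they were 0, but 4 with DESeq2, 1 with voom, 1 with the depth set as a term and 4 with group means for each depth set. Leaving out 1 wild-type library gave 0 to 1, the 1 being Skil without wild-type myotube 2, beside 5.93% of all genes. For wild-type differentiation 9 became 11 with DESeq2, 11 with voom and 2 among shallow libraries with group means for each depth set. The count lay between 6 and 10 leaving out 1 wild-type library, beside 11.4% to 23.1% of all genes. With library size alone 6 of 34 were called, without Bmp2, Acvr1 and Bmpr2, beside 21.8% of all genes. For dICR/dICR differentiation 0 became 3 with DESeq2, 4 with the depth set as a term and 4 with only the groups compared (beside 14.2% of all genes), with 0 leaving out 1 library. For the difference between the changes 0 became 1 with DESeq2, with 0 leaving out 1 library. A fit leaving out 1 of 2 dICR/dICR libraries assumes the lone library varies like the other groups. The cause of these shifts was not tested.

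With a replicate block, 7 of 34 members were called for wild-type differentiation, beside 18.5% of all genes, with the calls for Bmp2 and Acvr1 lost. It called 0 members in each of the other comparisons. Same-numbered dICR/dICR libraries correlated at -0.53, a value whose sign depends on the numbering in groups of 2, so it cannot show pairing. A crossed replicate block called 2 of 34 for dICR/dICR differentiation, beside 6.33% of all genes. This block was chosen after seeing the data. So were the fits with group means for each depth set and the one without wild-type myoblasts 3 and 4. Without wild-type myoblasts 3 and 4, 7 were called for wild-type differentiation, beside 24.2% of all genes. They were Tgfb3, Mstn, Acvr2a, Smad3, Skil, Nog and, lower in myotubes, Grem1. The calls for Bmp2, Acvr1, Bmpr1a (adjusted p = 0.0629, edgeR), Bmpr2 and Ltbp1 were lost in that fit.

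Depth limits the low members: Bmp2 had 0 to 31 counts and Bmp4 1 to 26 counts in wild-type myoblasts, so differences in these genes rest on few counts.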
